A study of Mus musculus with 12 samples.

Results

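Genes of the postsynaptic density and of synaptic adhesion were followed in adult mouse prefrontal cortex after cocaine or saline exposure in adolescence. The set was given as a list of 34 gene names, and all 34 were found among the 28842 genes of the deposited expression table. All 34 also passed the minimum level used for testing, a mean of at least 1 FPKM (fragments per kilobase of exon per M fragments), which 13016 genes reached. The set holds 13 scaffold genes (Dlg1 to Dlg4, Dlgap1 to Dlgap4, Shank1 to Shank3, Homer2 and Homer3) and 5 genes of the calcium and calmodulin branch (Camk2a, Camk2b, Camk2d, Camk2g and Nrgn). It also holds 9 adhesion genes (Nrxn2, Nrxn3, Nlgn1 to Nlgn3 and Lrrtm1 to Lrrtm4) and 7 genes of Arf and actin control (Iqsec1, Iqsec2, Cyfip1, Cyfip2, Abi1, Abi2 and Baiap2).

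Prefrontal cortex of wild-type male mice of the inbred strain C57BL/6J was sequenced, with 6 libraries per group. Animals of the cocaine group had been given cocaine at 15 mg/kg in adolescence (postnatal days 28 to 42), and animals of the saline group saline over the same days. Every animal of both groups then had a pre-test on day 75, received 1 mg/kg cocaine before conditioned place preference training on days 76 and 77, and was tested on day 78. The cortex was collected within 30 to 60 min of that test, so the saline group was not free of cocaine. By the labels the groups differed only in adolescent exposure, in animals that all had cocaine and the test as adults. A lasting effect of that exposure and a changed response to the adult cocaine or test cannot be told apart. The study's title is about DUSP1 in medial prefrontal cortex and raised drug sensitivity in adults. Nothing in the labels ties each library to its own mouse, so the p-values reflect only how these libraries spread, which may be technical.

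The postsynaptic density is the protein layer under the receptors of an excitatory synapse. Membrane-associated guanylate kinases of the Dlg family hold receptors and adhesion proteins there, Dlgap proteins link them to Shank proteins, and Homer proteins tie Shank to metabotropic glutamate receptors. Calcium that enters through receptors activates the kinase CaMKII, which is held at the synapse in large amounts in forebrain neurons, and adhesion pairs such as neurexins with neuroligins or with LRRTM proteins join the presynaptic to the postsynaptic membrane.

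The libraries held between 16.7 and 19.9 M reads, and between 50 reads (for Homer3) and 47451 reads (for Camk2a) lay behind a single value of a gene of the set, so Homer3 carried the largest counting error. All 8 excitatory neuron markers and all 7 interneuron markers looked up had a mean of at least 1 FPKM. So did all 6 markers of striatal projection neurons, which summed to 45.8 to 71.9 FPKM in cocaine libraries and to 43.4 to 71.7 FPKM in saline libraries. Among them, Adora2a ran from 0.590 to 3.76 FPKM in cocaine libraries and from 0.684 to 4.05 FPKM in saline libraries. A mesenchymal cell line named in a label field went against the data: 0 of 6 mesenchymal markers reached that level, with a summed level of 2.03 to 3.69 FPKM in cocaine libraries and 2.25 to 2.93 FPKM in saline libraries. Choroid plexus markers summed to 0.271 to 1.64 FPKM in cocaine libraries and to 0.551 to 539 FPKM in saline libraries, the highest being saline 5. Myelinating oligodendrocyte markers, all 10 detected, summed to 534 to 2163 FPKM in cocaine libraries and to 350 to 2608 FPKM in saline libraries. In such bulk tissue, fewer cells of a type and less RNA per cell cannot be told apart.

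3 promoter sequences are shown as examples. Cyfip2 fell and Nrgn rose with a library score of ribosomal protein genes that is described further on. Shank3 also fell with that score, and its window held the letters of a motif of EGR factors, which neuronal activity induces. The sequences are from RefSeq, build GRCm38.p6, run from 250 bases before to 50 bases after an annotated start, and are written 5′ to 3′ on the gene's strand with CG dinucleotides in capitals. They lie at chr11:46312309-46312608 on the minus strand for Cyfip2, chr9:37552696-37552995 on the minus strand for Nrgn and chr15:89499358-89499657 on the plus strand for Shank3.
Cyfip2: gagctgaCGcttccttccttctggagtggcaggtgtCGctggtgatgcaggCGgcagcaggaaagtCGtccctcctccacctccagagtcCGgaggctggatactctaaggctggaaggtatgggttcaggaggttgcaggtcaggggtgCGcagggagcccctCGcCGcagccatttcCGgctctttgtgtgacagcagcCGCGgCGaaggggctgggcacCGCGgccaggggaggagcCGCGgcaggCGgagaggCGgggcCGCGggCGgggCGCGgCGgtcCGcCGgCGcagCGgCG
Nrgn: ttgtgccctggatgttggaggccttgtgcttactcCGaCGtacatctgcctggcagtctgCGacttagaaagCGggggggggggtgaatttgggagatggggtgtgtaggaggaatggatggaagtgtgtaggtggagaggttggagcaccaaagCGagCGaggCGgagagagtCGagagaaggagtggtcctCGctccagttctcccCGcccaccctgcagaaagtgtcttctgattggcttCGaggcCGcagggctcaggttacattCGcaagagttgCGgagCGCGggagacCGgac
Shank3: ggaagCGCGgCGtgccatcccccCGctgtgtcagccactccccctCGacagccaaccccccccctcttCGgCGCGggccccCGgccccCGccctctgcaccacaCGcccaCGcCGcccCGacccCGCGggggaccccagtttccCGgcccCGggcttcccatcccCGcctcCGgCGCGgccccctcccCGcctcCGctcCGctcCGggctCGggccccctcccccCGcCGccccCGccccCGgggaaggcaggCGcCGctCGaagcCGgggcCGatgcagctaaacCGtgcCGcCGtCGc
The Shank3 promoter had 40 CG dinucleotides and 81.0 percent G or C, the Cyfip2 promoter 29 and 70.7 percent, and the Nrgn promoter 17 and 59.3 percent. RefSeq promoters were at hand for 24 of the 34 genes, 41 promoters in all. Their median was 12 CG dinucleotides and 55.7 percent G or C, against 7 and 52.7 percent over 32851 promoters. The EGR motif GCGTGGGCG, searched on both strands, was in 1 of the 41 promoters and in 0.612 percent of all promoters; the match in Shank3 began 146 bases before the start. The cyclic AMP response element TGACGTCA was in 0 of the 41 and in 1.79 percent of all promoters. The search says only whether these letters stand in the window.

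Per length, these genes were abundant in prefrontal cortex: their median level was 25.7 FPKM, against 6.64 FPKM over all genes tested. 26 of the 34 reached 10 FPKM, 3 reached 100 FPKM (Nrgn, Camk2a and Cyfip2) and 6 lay under 5 FPKM. Together they took 1.21 ± 0.102 percent of all reads in cocaine libraries and 1.23 ± 0.122 percent in saline libraries (SD, n = 6 each). They were also long, with a median summed exon length of 8497 bases against 4117.5 bases and a median span of 93.8 kb against 21.6 kb over all genes tested. When the genes were ordered by level, 29 of the 33 neighbouring pairs had overlapping ranges over the 12 libraries. The 4 steps at which ranges did not overlap were Nrgn over Camk2a, Camk2a over Cyfip2, Nlgn3 over Camk2d and Lrrtm4 over Homer3.

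**Figure D1:**
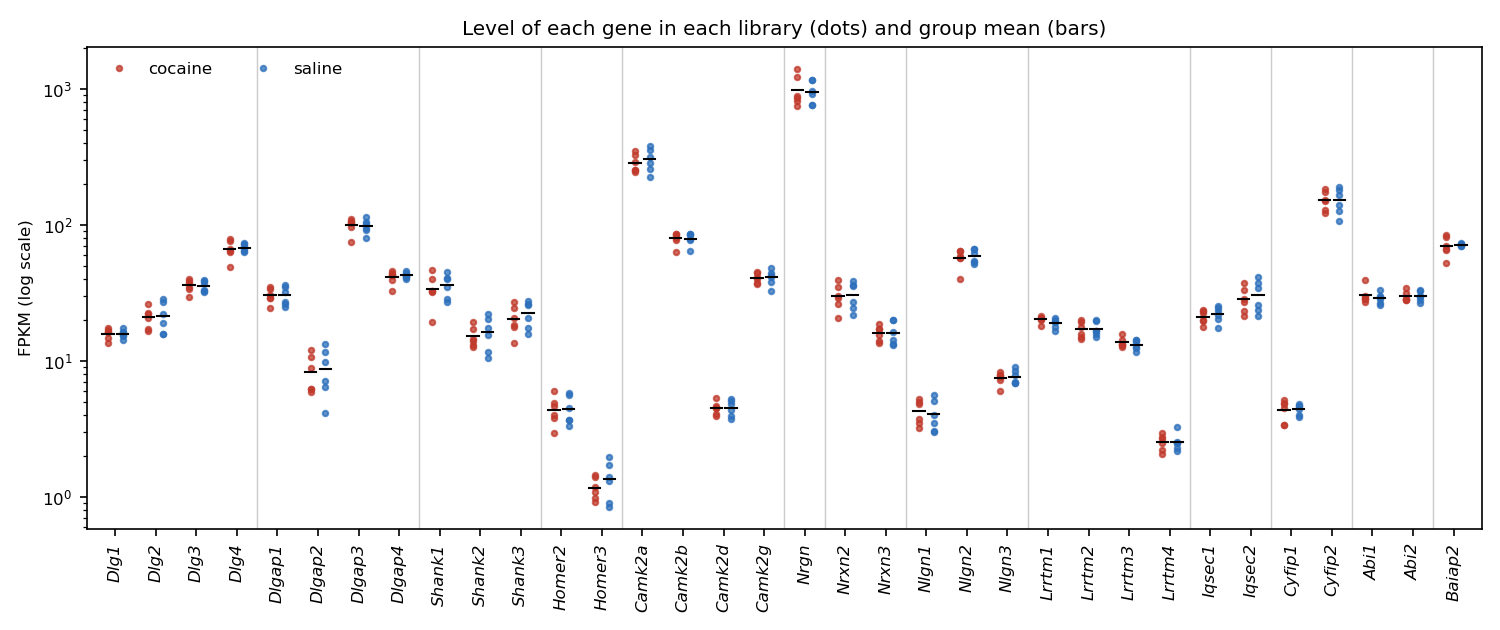
Level of each of the 34 genes (FPKM, log scale) in every cocaine library (red, left) and saline library (blue, right), with bars at the group means and families separated by lines. Nrgn (977 FPKM on average) and Camk2a (296 FPKM) stand highest and Homer3 (1.27 FPKM) lowest, and the cocaine and saline values of every gene overlap.

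No gene of the set differed between cocaine and saline libraries beyond the spread between libraries. Normalised reads are the deposited values, read counts divided by a size factor of the library, and differences are log2(value + 1) in cocaine minus saline libraries with their standard error (SE) from limma. Gene coordinates are on GRCm38. With limma over 13016 genes, 0 of the 34 had an adjusted p under 0.05 and 0 had an unadjusted p under 0.05, where 1.14 percent of all genes tested (0.676 percent higher and 0.469 percent lower) had the latter. In all genes, limma called 0 at the adjusted threshold and 149 had an unadjusted p under 0.05. The ranges of the groups overlapped for all 34, and 0.0768 percent of all genes tested had groups that did not overlap. Of the differences, 10 were above 0 and 24 below 0, with a median of -0.01 on the log2 scale against a median of 0.01 over all genes tested. Over all 13016 genes, 6990 were above 0 and 6026 below 0. Many genes of the set move together between libraries, so their signs are not separate results. The differences of the set ran from -0.17 (Homer3) to 0.09 (Lrrtm1), a fold of 0.891 to 1.06. For 33 of 34 genes the difference was smaller than its own standard error. The smallest limma p was 0.298 (adjusted p = 1.00) and the smallest exact permutation p over the 924 splits of 6 against 6 libraries was 0.251, both for Lrrtm1, where that design can reach 0.00216. A p that misses the threshold does not show equal levels, so the intervals matter: the 95% interval lay within 1.25-fold for 20 genes, within 1.5-fold for 32 and within 2-fold for all 34. On reads recovered from the values, 0 of the 34 had an adjusted or unadjusted p under 0.05 with edgeR, where 1.58 percent of genes had an unadjusted one. With DESeq2 it was again 0 of the 34 for both, where 0.0104 percent of genes passed the adjusted and 1.48 percent the unadjusted threshold. The authors' deposited table gave the same absence of calls, with a smallest p of 0.323 (Homer3) and an adjusted p of 1.00 for the set. Its log2 fold changes matched those of DESeq2 here (Homer3, -0.209 in both), so it is not a separate line of evidence.

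**Figure D2:**
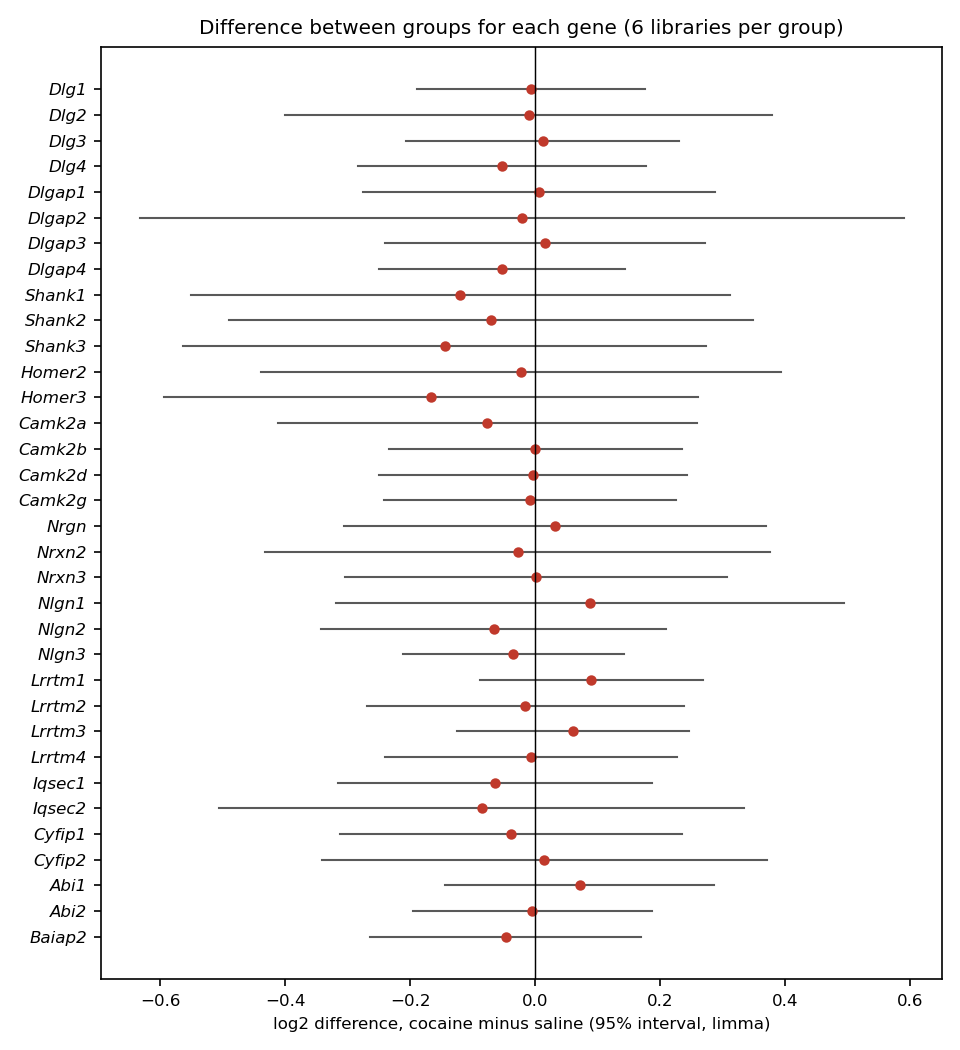
Difference between the groups for each gene (dot, log2 of cocaine minus saline on the log2(value + 1) scale) with its 95% interval from limma (line), 6 libraries per group. All 34 intervals include 0, and they are widest for Dlgap2 and narrowest for Nlgn3.

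Among the Dlg scaffolds, Dlg4, the main scaffold of this family at excitatory synapses, was the most abundant at 66.6 ± 10.9 FPKM in cocaine libraries and 68.4 ± 4.10 FPKM in saline libraries (SD, n = 6 each). Dlg4 had 11292, 15681 and 18445 normalised reads at the lowest, median and highest cocaine library and 14582, 16072 and 16741 at those of the saline group. Cocaine 3 was the low value and cocaine 1 the high value, so the saline range lay inside the cocaine range. The difference was -0.05 ± 0.11 (SE). Dlg3, an X-linked scaffold, averaged 35.8 FPKM with a difference of 0.01 ± 0.10 (SE), and Dlg2, spread over 1973 kb, averaged 21.1 FPKM with -0.01 ± 0.18 (SE). Dlg1, which also acts in receptor trafficking, averaged 15.9 FPKM with -0.01 ± 0.09 (SE). Dlg4 supplied 47.6 ± 5.11 percent of the family's summed FPKM in cocaine libraries and 48.5 ± 4.15 percent in saline libraries.

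Of the Dlgap linkers, Dlgap3 led with 99.4 ± 12.9 FPKM in cocaine libraries and 98.1 ± 11.8 FPKM in saline libraries (SD, n = 6 each). Dlgap3 had 5918, 8224 and 8825 normalised reads at the lowest, median and highest cocaine library and 6215, 7922 and 9210 at those of the saline group. The groups overlapped over nearly their whole range, and the difference was 0.02 ± 0.12 (SE). Dlgap4 averaged 42.1 FPKM (-0.05 ± 0.09, log2 difference and SE) and Dlgap1 30.4 FPKM (0.01 ± 0.13). Dlgap2, the least abundant linker at 8.55 FPKM, had the widest spread of the whole set. It ran from 634 (cocaine 5) to 1346 (cocaine 2) normalised reads in the cocaine group and from 440 (saline 5) to 1500 (saline 4) in the saline group, and its difference was -0.02 ± 0.29 (SE).

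Each Shank gene, whose proteins form the deeper layer of the density, had a difference below 0, but Shank1 had 0.03 without cocaine 3 and Shank2 had 0.01 and 0.04 without saline 3 or saline 4, and none passed the test. Shank1 (chr7:44310253-44360572) was the most abundant, at 33.9 ± 9.11 FPKM in cocaine libraries and 36.2 ± 7.10 FPKM in saline libraries (SD, n = 6 each). Shank1 had 3552, 5941 and 8944 normalised reads at the lowest, median and highest cocaine library and 4908, 6971 and 8594 at those of the saline group. The cocaine group held both the lowest library (cocaine 3) and the highest (cocaine 2), and the difference was -0.12 ± 0.20 (SE; limma adjusted p = 1.00; exact permutation p = 0.615). Shank3 (chr15:89499623-89560261), whose loss causes a human neurodevelopmental syndrome, averaged 21.4 FPKM. It had 2157, 3117 and 4557 normalised reads at the lowest, median and highest cocaine library and 2464, 3828 and 4658 at those of the saline group. The saline range lay within the cocaine range but for its upper end, and the difference was -0.14 ± 0.20 (SE; limma adjusted p = 1.00; exact permutation p = 0.517). Shank2 averaged 15.8 FPKM with a difference of -0.07 ± 0.20 (SE).

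Homer2 and Homer3 were among the less abundant genes of the set. Homer2 averaged 4.39 ± 1.04 FPKM in cocaine libraries and 4.45 ± 1.09 FPKM in saline libraries (SD, n = 6 each). Homer2 had 656, 962 and 1379 normalised reads at the lowest, median and highest cocaine library and 710, 909 and 1347 at those of the saline group, with a difference of -0.02 ± 0.19 (SE). Homer3 (chr8:70282827-70294361), a form best known from cerebellar Purkinje cells, was the least abundant gene of the set at 1.27 FPKM. It had 55.6, 69.9 and 87.0 normalised reads at the lowest, median and highest cocaine library and 53.1, 81.4 and 118 at those of the saline group. The saline range enclosed the cocaine range, and the difference of -0.17 ± 0.20 (SE; limma adjusted p = 1.00; exact permutation p = 0.431) was the largest of the set. Of the exon bases of Homer3, 25.4 percent are shared with Ddx49 on the opposite strand, and the strand setting of the counting is not given in the sources used here, so reads of these genes cannot be told apart there.

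Camk2a, the alpha subunit of CaMKII and the hallmark kinase of forebrain excitatory neurons, averaged 287 ± 44.0 FPKM in cocaine libraries and 304 ± 58.7 FPKM in saline libraries (SD, n = 6 each). Camk2a had 31725, 35313 and 47658 normalised reads at the lowest, median and highest cocaine library and 29027, 39717 and 52010 at those of the saline group. The saline range enclosed the cocaine range, and the difference was -0.08 ± 0.16 (SE). The alpha subunit supplied 69.4 ± 2.20 percent of the family's summed FPKM in cocaine libraries and 70.5 ± 1.98 percent in saline libraries. Camk2b, the beta subunit, which binds actin, averaged 79.7 FPKM, and Camk2g averaged 41.2 FPKM, with differences of 0.00 ± 0.11 and -0.01 ± 0.11 (SE). Camk2d averaged 4.53 FPKM, with a difference of 0.00 ± 0.11 (SE), and held 1.11 ± 0.216 percent of the family in cocaine libraries and 1.07 ± 0.201 percent in saline libraries.

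Nrgn encodes neurogranin, a small protein that binds calcium-free calmodulin in dendrites. It was the most abundant gene of the set, at 994 ± 265 FPKM in cocaine libraries and 961 ± 184 FPKM in saline libraries (SD, n = 6 each). Nrgn had 19939, 22386 and 35867 normalised reads at the lowest, median and highest cocaine library and 20260, 24115 and 29398 at those of the saline group. Cocaine 2 was the lowest and cocaine 1 the highest, so the cocaine range enclosed the saline range, and the difference was 0.03 ± 0.16 (SE).

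On the presynaptic side of the adhesion pairs, Nrxn2 averaged 30.2 ± 6.59 FPKM in cocaine libraries and 30.8 ± 7.15 FPKM in saline libraries (SD, n = 6 each). Nrxn2 had 5004, 7101 and 9983 normalised reads at the lowest, median and highest cocaine library and 5173, 7709 and 9829 at those of the saline group, and the difference was -0.03 ± 0.19 (SE). The 2 ranges were nearly the same. Nrxn3, which spans 1612 kb, averaged 16.1 FPKM with a difference of 0.00 ± 0.14 (SE).

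Nlgn2, the neuroligin of inhibitory synapses, was by far the most abundant neuroligin, at 57.0 ± 8.91 FPKM in cocaine libraries and 59.2 ± 6.75 FPKM in saline libraries (SD, n = 6 each). Nlgn2 had 4041, 5846 and 6781 normalised reads at the lowest, median and highest cocaine library and 5155, 6038 and 7039 at those of the saline group. Cocaine 3 was the one library under the saline range, and the difference was -0.07 ± 0.13 (SE). Nlgn2 made up 82.5 ± 3.57 percent of the summed FPKM of the neuroligins in cocaine libraries and 83.4 ± 1.59 percent in saline libraries. Nlgn3, found at both kinds of synapse, averaged 7.60 FPKM (-0.04 ± 0.08, log2 difference and SE), and 41.2 percent of its exon bases are shared with the transcript Gm21986 on the same strand. Nlgn1, the neuroligin of excitatory synapses, averaged 4.16 FPKM (0.09 ± 0.19), with 9.16 percent of exon bases shared with an antisense transcript.

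The LRRTM proteins are postsynaptic partners of neurexins at excitatory synapses. Lrrtm1 (chr6:77242689-77257791) was the most abundant, at 20.3 ± 1.18 FPKM in cocaine libraries and 19.1 ± 1.50 FPKM in saline libraries (SD, n = 6 each). Lrrtm1 had 959, 1104 and 1147 normalised reads at the lowest, median and highest cocaine library and 875, 1046 and 1152 at those of the saline group. The highest value of all belonged to saline 3. Its difference of 0.09 ± 0.08 (SE; limma adjusted p = 1.00; exact permutation p = 0.251) was a fold of 1.06 with a 95% interval of 0.941 to 1.20. Lrrtm3 (chr10:63928472-64090277) averaged 13.5 FPKM and had 964, 991 and 1168 normalised reads at the lowest, median and highest cocaine library and 842, 990 and 1109 at those of the saline group. Its difference was 0.06 ± 0.09 (SE; limma adjusted p = 1.00; exact permutation p = 0.459), with nearly equal medians. Lrrtm2 averaged 17.2 FPKM (-0.02 ± 0.12, log2 difference and SE) and Lrrtm4, the lowest, 2.54 FPKM (-0.01 ± 0.11). Lrrtm1, Lrrtm2 and Lrrtm3 overlap the catenin genes Ctnna2, Ctnna1 and Ctnna3 on the opposite strand. Of their exon bases, Lrrtm1 and Lrrtm3 share 0 percent with another gene and Lrrtm2 shares 1.58 percent with Ctnna1. For Lrrtm4, 25.1 percent of the exon bases are shared with an antisense transcript.

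Iqsec1 and Iqsec2 encode exchange factors that activate Arf GTPases at the density. Iqsec2, X-linked, averaged 28.7 ± 6.14 FPKM in cocaine libraries and 30.7 ± 8.13 FPKM in saline libraries (SD, n = 6 each). Iqsec2 had 2608, 3398 and 4819 normalised reads at the lowest, median and highest cocaine library and 2565, 3704 and 5237 at those of the saline group, and the difference was -0.09 ± 0.20 (SE). The saline range enclosed the cocaine range. Iqsec1 averaged 21.7 FPKM with a difference of -0.06 ± 0.12 (SE).

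Cyfip and Abi proteins are subunits of the WAVE complex, which starts branched actin growth in spines, and Cyfip1 also binds the fragile X protein. Cyfip2 (chr11:46193850-46312859) averaged 153 ± 24.6 FPKM in cocaine libraries and 152 ± 32.5 FPKM in saline libraries (SD, n = 6 each) and made up 97.2 ± 0.333 percent and 97.1 ± 0.466 percent of the pair's summed FPKM in those groups. Cyfip2 had 15007, 18771 and 24012 normalised reads at the lowest, median and highest cocaine library and 13103, 19224 and 24511 at those of the saline group. The saline range enclosed the cocaine range, and the difference was 0.01 ± 0.17 (SE). Cyfip1 averaged 4.39 FPKM with a difference of -0.04 ± 0.13 (SE), and 11.0 percent of its exon bases are shared with Nipa2 on the opposite strand.

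Abi2 and Abi1 were the only family of nearly equal levels, at 30.0 and 29.9 FPKM on average. Abi2 had 4136, 4395 and 5174 normalised reads at the lowest, median and highest cocaine library and 3930, 4439 and 5193 at those of the saline group, a difference of -0.01 ± 0.09 (SE). Abi1 (chr2:22940073-23040241) had 1929, 2097 and 2791 at the lowest, median and highest cocaine library and 1821, 2067 and 2481 at those of the saline group. Its highest value came from cocaine 3 and stood apart from the other cocaine libraries, and the difference was 0.07 ± 0.10 (SE; limma adjusted p = 1.00; exact permutation p = 0.502), which became 0.00 without cocaine 3. Baiap2, an adaptor that joins membrane curvature to actin, averaged 70.3 ± 11.7 FPKM in cocaine libraries and 71.7 ± 1.63 FPKM in saline libraries (SD, n = 6 each). Baiap2 had 4602, 6109 and 7454 normalised reads at the lowest, median and highest cocaine library and 6055, 6319 and 6484 at those of the saline group. The saline values were tightly grouped inside the cocaine range, and the difference was -0.05 ± 0.10 (SE).

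A ratio of family members within a library does not depend on how libraries were scaled, and 9 such FPKM ratios were compared. None was called between the groups: the exact permutation p ran from 0.305 (Abi2 over Abi1) to 0.900 (Nrxn3 over Nrxn2), two-sided, and the Benjamini-Hochberg value over the 9 was 0.900 for each. No interval was computed for the ratios, so equal ratios are not shown. Camk2a over Camk2b, the alpha to beta subunit ratio of CaMKII, was 3.60 ± 0.417 in cocaine libraries and 3.80 ± 0.433 in saline libraries (SD, n = 6 each). Dlg4 over Dlg1 was 4.27 ± 1.07 in cocaine libraries and 4.32 ± 0.561 in saline libraries. Nlgn2 over Nlgn3, which sets a neuroligin of inhibitory synapses against one of both kinds, was 7.72 ± 1.81 in cocaine libraries and 7.87 ± 1.71 in saline libraries. Cyfip2 over Cyfip1 was the widest at 35.4 ± 4.02 and 34.3 ± 5.82 in those groups. Shank3 over Shank1 was the steadiest ratio, at 0.608 ± 0.0522 in cocaine libraries and 0.617 ± 0.0374 in saline libraries, although each gene varied more than 2-fold within the cocaine group. Abi2 over Abi1 was 0.983 ± 0.0697 in cocaine libraries and 1.04 ± 0.0951 in saline libraries. Dlgap1 over Dlgap4 was 0.742 ± 0.122 in cocaine libraries and 0.710 ± 0.0990 in saline libraries, and Nrxn3 over Nrxn2 was 0.551 ± 0.136 and 0.530 ± 0.0515 in those groups. Homer3 over Homer2 had the widest relative spread, at 0.280 ± 0.0811 in cocaine libraries and 0.336 ± 0.162 in saline libraries.

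**Figure D3:**
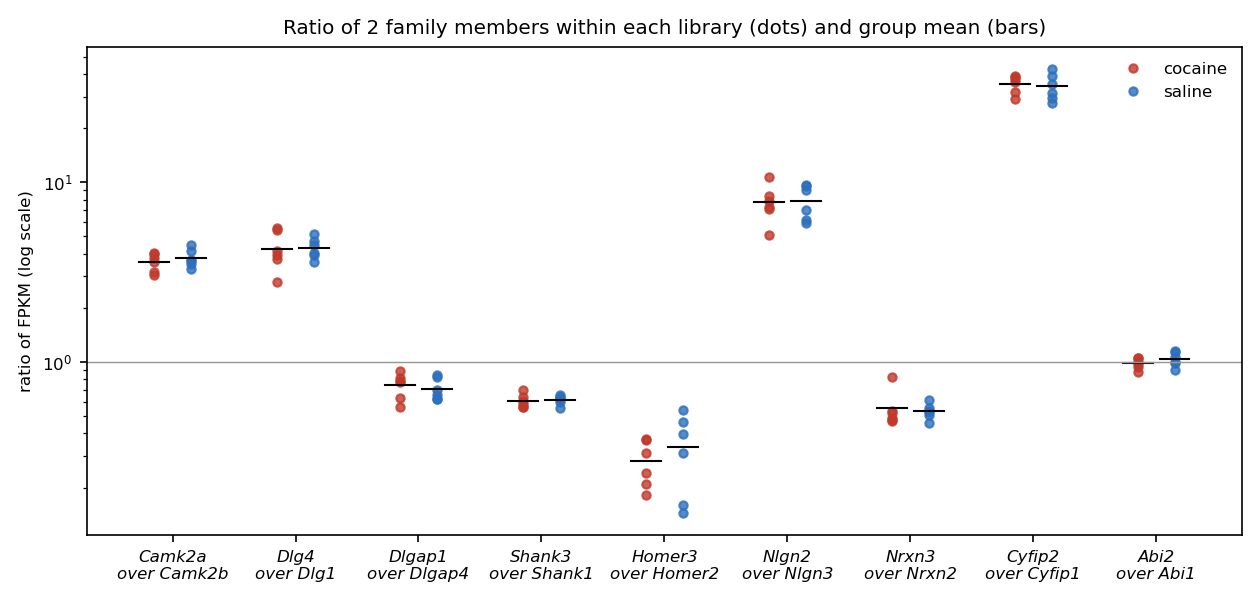
FPKM ratio of 2 genes of a family within each library (dots, log scale) for cocaine (red, left) and saline (blue, right), with bars at the group means. The groups overlap for all 9 ratios, and the cocaine library of Nrxn3 over Nrxn2 at 0.824 stands above the others of its group.

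Many of the genes moved together from library to library inside both groups. The first component of the deviations from the group means held 73.7 percent of the variance over the 34 genes, against 45.7 percent over all genes tested. The deviations were not scaled, so genes of wide spread such as Dlgap2 weighed most. No list of genes matched for level was compared, so the higher share is not shown to be particular to the set. In the cocaine group, cocaine 2 was the highest library for 16 of the 34 genes and cocaine 5 the lowest for 11. In the saline group, saline 4 was the highest for 14 and saline 3 for 11, while saline 5 was the lowest for 16 and saline 6 for 8. Cocaine 3 did not follow the order, being the lowest library for 13 genes, among them Dlg4, Dlgap3, Dlgap4, Shank1, Nlgn2 and Baiap2, and the highest for 9, among them Dlg1, Nlgn1, Cyfip1 and Abi1. Without cocaine 3 the median difference over the 34 genes was 0.01, against -0.01 with it.

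The movement ran opposite to that of the ribosomal protein genes, 76 of which were averaged into a score per library, a measure taken up after the pattern was seen and therefore a description. The summed level of these genes was 6682 (cocaine 2) to 10515 (cocaine 1) FPKM in cocaine libraries and 6233 (saline 4) to 11867 (saline 5) FPKM in saline libraries, and the score averaged 0.01 ± 0.22 and -0.01 ± 0.35 (log2, SD, n = 6 each) in those groups. With the group as a term, 23 of the 34 genes fell with the score at a limma adjusted p under 0.05, and 2 rose. Of 12940 genes tested, 50.8 percent were called, 27.4 percent falling and 23.4 percent rising, so such slopes were frequent in the whole transcriptome, and the set leaned towards the falling side. When libraries were scaled to their upper quartile, 20 fell and 3 rose, beside 22.1 and 30.6 percent of all genes. When they were scaled to an equal sum of FPKM, 27 fell and 1 rose, beside 35.2 and 14 percent. Without the libraries farthest from the middle of the score, saline 4 and saline 5, 18 genes fell and 2 rose, beside 21.4 and 16.8 percent of all genes.

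**Figure D4:**
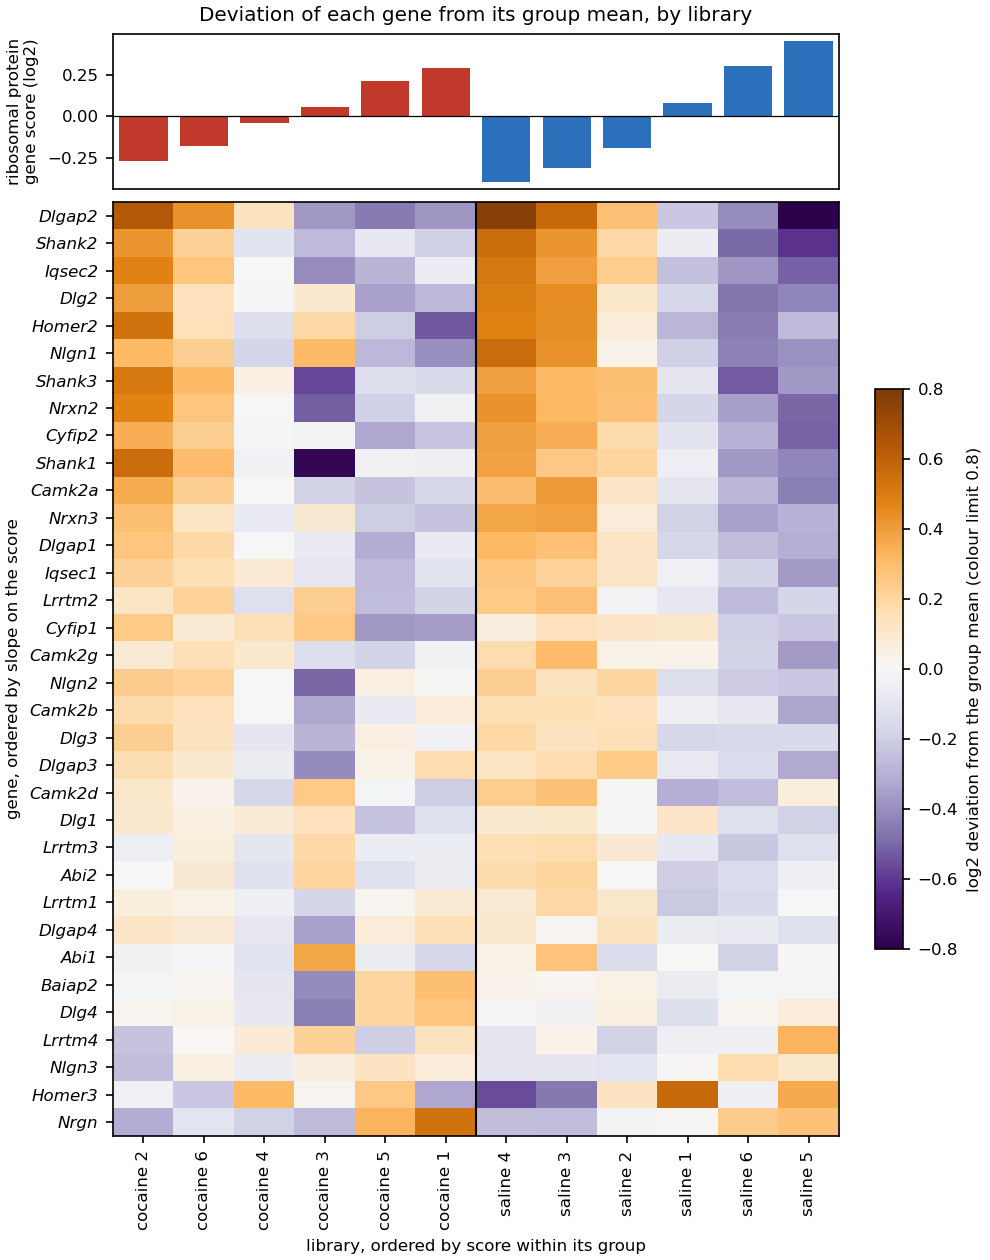
Deviation of each gene from its group mean (log2, orange above and purple below, colour limit 0.8) in every library, ordered by the ribosomal protein gene score within the cocaine group (left) and the saline group (right); the bars above give the score. Genes at the top, from Dlgap2 to Nrxn3, run from orange to purple as the score goes up in both groups, while Nrgn at the bottom runs the other way.

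The steepest slope was that of Dlgap2, which fell by 1.93 ± 0.15 (SE) on the log2 scale per unit of log2 score. Shank2 fell by 1.26 ± 0.13, Iqsec2 by 1.22 ± 0.16, Dlg2 by 1.18 ± 0.12 and Homer2 by 1.17 ± 0.18. Cyfip2 fell by 1.08 ± 0.09 and Camk2a by 0.96 ± 0.12 (SE). The falling genes thus included scaffolds, the CaMKII alpha subunit, the WAVE subunit Cyfip2, and the adhesion genes Nrxn2, Nrxn3, Nlgn1, Nlgn2, Lrrtm2 and Lrrtm3. Nrgn rose by 0.85 ± 0.17 and Nlgn3 by 0.36 ± 0.10 (SE); Nlgn3 was no longer called with an equal sum of FPKM (slope 0.21, adjusted p = 0.214, limma). Neither rise was called with the replicate number as a block (slopes 0.52, adjusted p = 0.293, for Nrgn and 0.24, adjusted p = 0.397, for Nlgn3, limma). The 9 genes without a call were Abi1, Abi2, Baiap2, Camk2d, Dlg4, Dlgap4, Homer3, Lrrtm1 and Lrrtm4. All 23 falling genes had a slope below 0 in each group alone. Their median slope was -0.98 in cocaine libraries and -0.90 in saline libraries. Both rising genes had a slope above 0 in each group. These genes had been picked by the fit over the same libraries, which favours equal signs in the groups. The equal signs are therefore a description and not a separate test. The same split was not taken over all called genes.

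**Figure D5:**
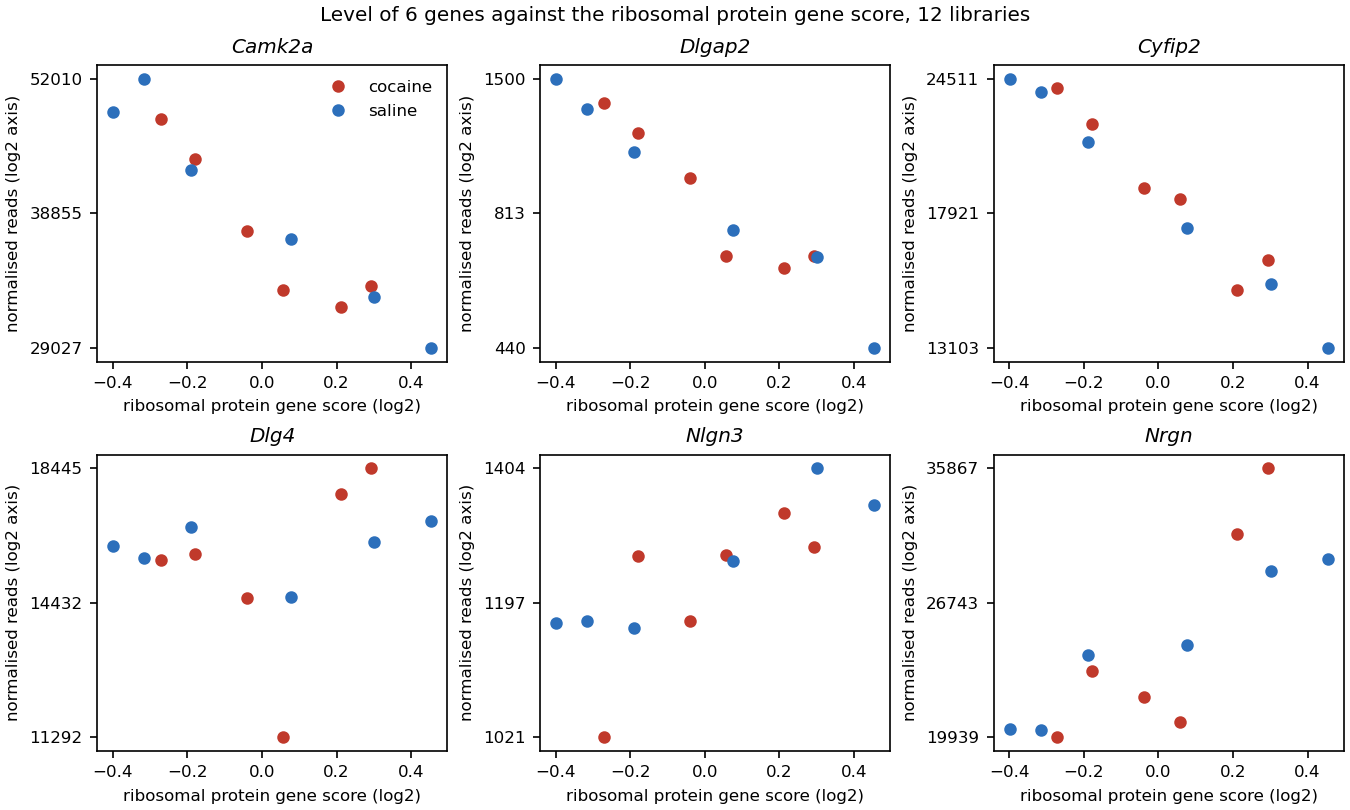
Normalised read count (log2 axis) of 6 genes against the ribosomal protein gene score (log2) in the 6 cocaine libraries (red) and 6 saline libraries (blue). Camk2a, Dlgap2 and Cyfip2 fall with the score in both groups, Nlgn3 and Nrgn rise, and Dlg4 shows no call, with cocaine 3 as its lowest library at 11292.

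Over all genes, those that fell with the score had a median exon length of 6684.5 bases and a median span of 56.2 kb, against 2459 bases and 9.83 kb for those that rose. The 23 falling genes of the set had medians of 9189 bases and 107 kb. Of the rising genes, Nrgn has the shortest exon length of the set, 1453 bases over a span of 8.41 kb, but Nlgn3 has 9271 bases over 26.8 kb, a longer exon length than the median of the falling genes. The part of gene length in this movement was not tested. With the score as a covariate the standard error of the group difference was smaller for all 34 genes, with a median of 0.08 against 0.12. Even so, 0 of the 34 were called and 0 had an unadjusted p under 0.05, where 3.37 percent of all genes had one. The largest difference was then 0.18 in size (Homer3, -0.18 ± 0.18, SE) and the smallest limma p was 0.188 (Lrrtm1, adjusted p = 1.00).

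On the oligodendrocyte markers the set's count of calls was near that of all genes. The score of these markers averaged -0.08 ± 0.68 in cocaine libraries and 0.08 ± 1.16 in saline libraries (log2, SD, n = 6 each). With the group as a term, 1 of the 34 genes was called on this score, where 3.36 percent of all genes were (3.12 percent with a slope above 0 and 0.238 percent below): Homer3 rose by 0.34 ± 0.07 (SE) per unit of score (limma adjusted p = 0.0192). This call was lost without any one of cocaine 4, saline 1, saline 3, saline 4 or saline 5, with 0 genes of the set called each time. Without cocaine 1, 3 were called, beside 6.18 percent of all genes. With weights for the libraries 22 were called, 21 of them falling, beside 31.2 percent of all genes, 18 percent falling. The part of oligodendrocyte RNA in the level of Homer3 was not tested.

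A label field gives each library a time of day 0 or day 5, in step with odd and even replicate numbers, so the group difference was also taken within each value (3 against 3 libraries). Among libraries tagged day 0 the median difference over the 34 genes was -0.09, with 8 above 0, and among those tagged day 5 it was 0.06, with 27 above 0. The same split was not taken over all genes. Many of the genes move together between libraries, so these counts are not separate results for each gene. The direction of the median thus did not hold within the tags, and neither value is a call.

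Among other genes of the same machinery there was no call either. The list of 73 further genes covers scaffold partners such as Homer1, other WAVE subunits, receptor phosphatases such as Ptprd, and adhesion families such as Slitrk, Lrfn, Cadm and Cbln. It was drawn up with earlier results of these data known. All 73 were tested, 35 had a difference above 0 and 38 below 0, 0 had an adjusted p under 0.05 and 1 had an unadjusted p under 0.05, beside the 1.14 percent of all genes. That gene was Mdga1, whose protein binds neuroligin 2 and blocks its pairing with neurexins: it had 155 ± 50.0 normalised reads in cocaine libraries and 202 ± 16.9 in saline libraries (SD, n = 6 each), a difference of -0.43 ± 0.18 (SE; limma adjusted p = 1.00). Lrfn2, a postsynaptic adhesion gene, had -0.19 ± 0.12 (SE). In the other direction the smallest p belonged to Cbln1, a secreted bridge between neurexins and glutamate receptors of the delta type, with 0.11 ± 0.09 (SE), and to Lrrc4c, a netrin-G ligand, with 0.16 ± 0.14 (SE). On the ribosomal protein score, 46 of the 73 fell and 4 rose, beside 27.4 and 23.4 percent of all genes.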

How the data were processed

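Prefrontal cortex RNA of 12 libraries, 6 per group, was sequenced with an Illumina TruSeq kit from 1 µg of total RNA, per the labels' protocols. Groups were taken from the treatment label. A cell line and the human build hg38 in other label fields do not match the mouse tissue and were not used. A time tag in another field did not define the groups and entered only an alternative fit and the differences within each tag. Per the submitters' processing notes, HISAT2 2.0.5 was used; the counting tool, strand setting and gene annotation are not given in any source used here. The authors deposited 1 table: values per library, group means, a gene length, a log2 fold change and p-values, per the file headers. Its name says FPKM, but the deposited values per library are a signal of read counts divided by 1 size factor and not by length: 100 percent of values were whole multiples of 1 read (tolerance 0.01 read), and recovered reads ranged from 16.7 to 19.9 M, which sets the counting precision. The deposited length column is of another kind, in bases. GENCODE M21 holds 28805 of the 28842 gene IDs, 28041 of them with identical coordinates (33 of the 34 genes of the set, Lrrtm2 excepted), so coordinates are GRCm38, as in the table.

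FPKM was computed here from value, length and column sum. limma 3.58.1 in R 4.3.3 was fitted on log2(value + 1), which understates changes of low genes, with a variance trend, two-sided, over the 13016 genes with a mean of at least 1 FPKM, with Benjamini-Hochberg adjustment and a threshold of 0.05. A score is the mean log2 deviation of a list's genes in a library; slopes on a score came from the same model with the group as a term, leaving out the score's own genes. Exact permutation tests used all 924 splits. Alternatives were other pseudocounts, filters and scalings, no variance trend, weighted libraries, a block for replicate number, a term for the time tag, each score as a covariate, leaving out each library, and edgeR 4.0.16 and DESeq2 1.42.0 on recovered reads. The limma fit was tested on simulated counts that were independent between genes and had the same low dispersion for every gene. Its behaviour under a movement shared by many genes, as found here, was not tested. Nor was it tested at the wider spread that many genes have in these libraries, where changes are harder to detect. No pair of libraries of a group agreed within sampling noise (smallest chi-square per gene 5.04).

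The genes of the set and the lists were chosen with earlier results of these data known. Every gene of the set is named. Lowest, median and highest values are given for the 3 genes with the smallest p in each direction, for the most abundant gene of each family, and for Nrgn and Baiap2; of the further genes, the 2 with the smallest p in each direction are named. Dlgap2, Homer2, Shank2 and the others named for their slopes were chosen after those values were seen. The ribosomal protein score was added after seeing the data.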

Additional observations from a re-analysis of the deposited data

Results flagged for a closer look

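In the cocaine group, 1 library of 6 lay far from the others for 2 of the results, both times cocaine 3. Of 86 groups of 6 values looked at (each gene and each ratio in each treatment group), 2 held such a value, where chance gives about 4.3. Abi1 had 2791 normalised reads in cocaine 3, with the next cocaine library at 2143 and the lowest at 1929. The FPKM ratio of Nrxn3 over Nrxn2 was 0.824 in cocaine 3, with the next cocaine library at 0.532 and the lowest at 0.467. Nrxn2 itself had its lowest cocaine value in that library, 5004 normalised reads. The difference of Abi1 was 0.07 with cocaine 3 and 0.00 without it (log2), that of the ratio was 0.03 with it and -0.09 without it, and neither result was called in either case.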

How the results depend on the processing

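Across 27 alternatives, 0 of the 34 genes were called against saline, and the median difference over them stayed between -0.06 (without saline replicate 5) and 0.03 (without saline replicate 3). Of 918 values of single genes under alternatives, 130 had the other sign, in 28 genes, and 0 moved by over 1 SD between libraries; the smallest unadjusted p was 0.151. All 126 values of the 9 ratios were within that spread, with a smallest p of 0.0931. Over all genes, DESeq2 called 3 (428 at an unadjusted p under 0.05) and edgeR 0 (253), none of them in the set; the cause was not tested. In their deviations from the group means, same-numbered libraries correlated at -0.11, 0.43, 0.00, -0.12, 0.39 and -0.40. Differently numbered libraries were not compared across the groups, so these values cannot decide whether replicate numbers pair the libraries. With the replicate number as a block, 0 of the 34 were called against saline, 15 on the ribosomal protein score (all falling, 0 rising, beside 10.4 and 3.18 percent of all genes) and 0 on the oligodendrocyte score (2.95 percent of all genes). Genes called on the ribosomal protein score numbered 22 to 27 without 1 library (43.6 to 55.5 percent of all genes) and 20 without saline 4 and saline 5 (38.2 percent). Genes called on the oligodendrocyte score numbered 0 to 3 without 1 library (2.21 to 6.18 percent of all genes), 22 with library weights (31.2 percent of all genes), 0 with no filter (2.03 percent, more genes tested) and 0 without the farthest libraries, saline 1 and saline 4 (1.55 percent, fewer samples). Counting error is largest for Homer3, at 50 to 120 reads a library, and a 1.25-fold difference lies inside the interval of 14 genes.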
